A study of Mus musculus with 158 samples.

Results

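Pool 15 is 1 of 19 pools of short hairpin RNAs (shRNAs, sequences that direct knockdown of a target transcript) that were carried by PDA530 Met cells, a mouse pancreatic ductal adenocarcinoma line from a liver metastasis. Its members are the hairpins that the deposited tables assign to pool 15: 54 of 1000 targeting hairpins, aimed at 24 of 285 genes, read in 10 of the 148 samples that hold values. Per the labels, the cells received virus at a multiplicity of infection of 0.3 and were selected with puromycin (3 µg/ml) for 4 days. The day 0 arm is cells pelleted at that point (3 libraries, B, C and D). The lung arm is DNA from lung tumours taken 28 days after tail vein injection of the selected cells, with the tumours of each mouse pooled and 3 mice per pool (libraries B, C and D). The culture arm is selected cells kept in dishes over the same 28 days (4 libraries). Culture A, B and C are titled for pools 14 and 15 together, although their pool label gives 14 only, and culture D is titled for pool 15 alone. Every group therefore carries the vector, the selection and 8 control hairpins, and the groups differ in time and site of growth.

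In a pooled knockdown screen the hairpin is integrated in the genome, so its share of the sequenced hairpin DNA follows the share of cells that carry it. A hairpin that slows growth becomes rarer, and a hairpin in cells that outgrow the others becomes more common. Cells injected into the tail vein lodge first in the lung capillaries, so this assay covers survival, seeding and growth in the lung but not escape from a primary tumour. A share cannot tell cells lost at seeding from cells that grew more slowly afterwards. The amount of knockdown given by each hairpin was not analysed here. No sequence of these hairpins was used here, and they are named by their clone identifiers.

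The named targets fall into groups by what the genes are known to do. Of the 24 genes, 4 had 1 hairpin in the pool, 11 had 2, 8 had 3 and 1, Usp34, had 4. Snrpd1 and Eftud2 encode parts of the spliceosome. Cdc27 (anaphase-promoting complex), Timeless (replication fork protection), Ube2m (a conjugating enzyme of cullin neddylation) and the growth-promoting transcription factor Myc act in cell division. Lama3 (a laminin chain of the basement membrane), Coch (a secreted matrix protein), Tfpi2 (a secreted protease inhibitor), Plaur (the urokinase receptor) and Dpep1 (a membrane dipeptidase) act at the cell surface or outside the cell. Clint1 (a clathrin adaptor of the trans-Golgi network and endosomes) and Pacs2 (a sorting protein of the endoplasmic reticulum) act in membrane traffic. Rac1 (a small GTPase of the actin skeleton), Prkca (protein kinase C alpha) and Usp34 (a deubiquitinase) are signalling enzymes. Cacna2d1 and Cacng2 are auxiliary calcium channel subunits. Id4, Tsc22d1, Ndrg1 and Phlda1 are regulators of transcription and stress responses, and Gfap is the intermediate filament of astrocytes.

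The 10 libraries held 5782152 to 8829973 reads, recovered from the authors' scaled values as multiples of the smallest value of each library. Hairpins of pool 15 made up 69.6 to 72.2% of the reads at day 0, 80.1 to 88.7% in the lungs, 83.9% in culture D and 45.6 to 48.3% in cultures A to C. The mixed cultures held 1.48, 1.25 and 1.35 reads of pool 15 for each read of pool 14 in A, B and C. Shares below are percentages of the pool 15 reads of a library, which numbered 2893500 to 7834924, so that pool 14 does not enter them. Reads of hairpins from unrelated pools stayed at or below 0.381% in 9 libraries and reached 3.03% in day 0 C, of which 2.05% were hairpins of pool 3. The reads came from PCR without molecular identifiers, so counting limits understate the error of a share. Nothing in the labels says that the libraries of an arm at day 0 or in culture came from separate infections, and p-values then measure only the spread between these libraries.

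Shares at day 0 were uneven. The mean share of a hairpin ran from 0.00112% to 8.74%. The 29 hairpins with a mean of at least 1% held 93.4% of the reads, 12 hairpins between 0.1% and 1% held 6.24%, and 13 hairpins below 0.1% held 0.380%. The most common hairpin at day 0 targeted Dpep1 (TRCN0000443862), with 8.89, 10.5 and 6.79% in day 0 B, C and D. It was followed by hairpins against Pacs2 (TRCN0000250356; 8.67, 8.09 and 7.43%), Lama3 (TRCN0000239268; 7.03, 6.73 and 9.54%), Usp34 (TRCN0000234171; 5.48, 4.88 and 7.14%) and Tfpi2 (TRCN0000284502; 5.32, 4.34 and 6.86%). Together these 5 held 35.9% of the day 0 reads.

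Within the pool the reads became concentrated on fewer hairpins. The effective number of hairpins, the exponential of the Shannon entropy of the shares, was 29.0, 30.1 and 26.2 in day 0 B, C and D, 18.0, 22.6, 19.7 and 21.0 in cultures A to D, and 19.4, 14.1 and 15.9 in lungs B, C and D. Day 0 lay above both later arms without overlap, while lungs and culture overlapped through lungs B. The means were 28.4 ± 1.99 (SD, n = 3) at day 0, 20.3 ± 1.95 (SD, n = 4) in culture and 16.5 ± 2.68 (SD, n = 3) in lungs. The medians of such means over pools were 31.9 at day 0, 21.9 in culture and 22.5 in lungs. Counted from the highest, pool 15 ranked 16 of 19, 13 of 18 and 15 of 17. By two-sided exact permutation tests over libraries, the lungs differed from day 0 with p = 0.1, the smallest p that 3 against 3 allows. Culture differed from day 0 with p = 0.0571, the smallest that 4 against 3 allows, and lungs and culture with an exact permutation p = 0.114. These designs cannot reach 0.05.

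The most common hairpin held a larger share in both late arms than at day 0. Its share was 8.89 to 10.5% at day 0, 10.9 to 13.9% in culture and 11.4 to 21.3% in lungs. The differences from day 0 were 7.73 points in lungs (exact permutation p = 0.1) and 3.00 points in culture (p = 0.0571, exact permutation test), again the smallest p values possible. Lungs and culture overlapped and differed by 4.73 points (exact permutation p = 0.229). Counted from the largest mean share, pool 15 ranked 5 of 19 pools at day 0, 14 of 18 in culture and 3 of 17 in lungs. The leading hairpin was not the same in every mouse. The Lama3 hairpin TRCN0000239268 led in lungs B (11.4%) and D (19.4%), and the Usp34 hairpin TRCN0000234171 led in lungs C (21.3%). In culture the leaders were the Lama3 hairpin in A (13.9%), the Pacs2 hairpin TRCN0000250356 in B (13.5%) and C (12.3%), and the Tfpi2 hairpin TRCN0000284502 in D (10.9%). The 5 hairpins with the highest mean share held 48.0% of the culture reads and 57.1% of the lung reads.

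Libraries of an arm agreed to different degrees. Pearson's r of log2(CPM + 1) across the 54 hairpins, which share a library and a denominator, was 0.954 to 0.972 between day 0 libraries, 0.949 to 0.956 between lungs and 0.895 to 0.970 between cultures. The mean r of 0.963 at day 0 was the lowest among 19 pools, whose median was 0.992. The mean r of 0.952 between lungs was the highest among 17 pools, whose median was 0.903. The median SD of a hairpin over libraries, in log2 units, was 0.378 at day 0 against a median over pools of 0.138, 0.674 in culture against 0.344, and 0.679 in lungs against 0.627. By both measures the day 0 libraries of pool 15 had the widest spread among the 19 pools.

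The comparison of lungs with day 0 asks which hairpins became rarer or more common while the cells formed lung tumours. It used limma on log2(CPM + 1), with CPM relative to pool 15 reads after TMM scaling, and Benjamini-Hochberg adjustment over the 891 hairpins tested in 17 pools. At an adjusted p under 0.05, 18 of 54 hairpins of pool 15 differed, 6 higher and 12 lower. Over all pools 33.8% of the tested hairpins passed, 14.7% higher and 19.1% lower, so the count for pool 15 lies near the background. The median log2 difference over the 54 hairpins was -0.71, beside -0.13 over all hairpins tested. TMM takes the bulk of hairpins as the reference, and here it moved the differences of abundant hairpins up by 0.98 against plain shares. Rare hairpins moved by less because of the pseudocount, such as Rac1 TRCN0000310901, at -5.94 against -6.45 on plain shares. On plain shares 26 hairpins differed, 3 higher and 23 lower, and the median was -1.69. The values below are shares first and TMM-scaled log2 differences second, the latter relative to the bulk of the pool.

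The calls were split by the share at day 0. Among the 29 hairpins that started at 1% or more, 6 were higher and 4 lower in lungs. Among the 12 between 0.1% and 1%, 0 were higher and 3 lower by limma, and among the 13 below 0.1%, 0 were higher and 5 lower. In both of these classes 0 were higher by edgeR and 0 at an unadjusted limma p under 0.05. All these counts are after TMM scaling, which moved abundant hairpins up by 0.98 and rare ones by less. Plain shares gave 3 higher and 23 lower over the 54 hairpins. The same classes were not counted in other pools, so the split cannot be called particular to pool 15. All 54 hairpins passed the filter of a mean of at least 10 reads. For 37 of the 54 hairpins the 3 lung shares lay outside the range of the 3 day 0 shares, 5 above it and 32 below it. Over the 892 hairpins of the 17 pools with both arms, pool 15 among them, the share was 59.9%, with 14.1% above and 45.7% below.

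Both spliceosome genes had a hairpin that nearly disappeared from the lungs. The Eftud2 hairpin (TRCN0000294567) had 2700, 1001 and 1162 reads at day 0 B, C and D, and 16, 0 and 2 reads in lungs B, C and D. The log2 difference was -7.03 (SE 0.84, adjusted p = 0.00134). Its share over the summed reads was 400-fold lower in lungs, with a 95% counting interval of 253 to 675. Cultures A to D kept 1165, 3906, 208 and 283 reads of it, so the culture range covered the day 0 range.

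The Snrpd1 hairpin TRCN0000295003 held 0.217, 0.173 and 0.209% at day 0 B, C and D. It was left with 3, 86 and 1 reads in lungs B, C and D, against 7187 to 9865 reads at day 0. Every mouse was far below every day 0 library, with a log2 difference of -8.70 (SE 1.14, adjusted p = 0.00208). The second Snrpd1 hairpin (TRCN0000295005) went from 1.11, 0.853 and 2.25% to 0.306, 0.463 and 1.21% in lungs. Those ranges overlapped, and its log2 difference was -0.23 (SE 0.68, adjusted p = 0.828). Of the 3 spliceosome hairpins 2 were lower in lungs, with a median log2 difference of -7.03. The share called lower over all pools was 19.1%.

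Of the 8 hairpins against genes of cell division, 3 were lower in lungs (1 by edgeR), with a median of -1.04. By limma 19.1% of the hairpins tested in all pools were lower, with a median of -0.13. The Myc hairpin TRCN0000234923 held 0.812, 0.886 and 0.527% at day 0 B, C and D, and 0.0964, 0.00461 and 0.0601% in lungs B, C and D. It fell in every mouse (log2 difference -3.61, SE 1.00, adjusted p = 0.0315), by far the most in lungs C. The call was lost without any of the 3 day 0 libraries (adjusted p of 0.0602 without D, 0.0824 without B and 0.0713 without C). The second Myc hairpin (TRCN0000234925) held 0.255, 0.367 and 0.137% at day 0 and 0.0428, 0.0334 and 0.0576% in lungs. Its ranges did not overlap either, with a log2 difference of -1.44 (SE 0.49, adjusted p = 0.0582).

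The Cdc27 hairpin TRCN0000248357 held 1.54, 1.29 and 1.03% at day 0 and 0.326, 0.212 and 0.285% in lungs, with no overlap. Its log2 difference was -1.25 (SE 0.36, adjusted p = 0.0347). The call was lost without any of the day 0 libraries or without lungs C, with adjusted p between 0.0738 and 0.139. The Timeless hairpin TRCN0000219102 was rare at the start, with 46, 48 and 194 reads at day 0 B, C and D, and had 0, 4 and 1 reads in lungs. Its log2 difference was -3.35 (SE 0.88, adjusted p = 0.0259), and its summed share was 85.3-fold lower (95% counting interval 36.1 to 265). Without day 0 D, lungs D or lungs B the adjusted p was 0.0581, 0.0721 or 0.0879. The other Timeless hairpin (TRCN0000234047) held 2.01, 2.19 and 1.14% at day 0 and 0.833, 0.567 and 1.45% in lungs, which overlapped (log2 difference 0.03, SE 0.40, adjusted p = 0.973). The single Ube2m hairpin (TRCN0000350040) held 0.868 to 1.76% at day 0 and 0.268 to 0.433% in lungs, without overlap. Its log2 difference was -0.83 (adjusted p = 0.173), and -1.81 on plain shares (adjusted p = 0.0204).

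Hairpins against Rac1 fell strongly for 2 of 3 clones. TRCN0000310888 held 0.102, 0.193 and 0.0343% at day 0 B, C and D and 0.00253, 0.00485 and 0.000891% in lungs B, C and D, with no overlap. The log2 difference was -4.27 (SE 0.95, adjusted p = 0.0153). TRCN0000310901 had 77, 1811 and 438 reads at day 0 and 0, 0 and 1 in lungs, which allows shares of up to 4.79e-05% and 3.83e-05% in the mice with 0 reads. Its log2 difference was -5.94 (SE 1.19, adjusted p = 0.0102), and the day 0 libraries themselves differed widely. The third clone, TRCN0000301589, held 0.637, 0.622 and 0.681% at day 0 and 0.689, 0.173 and 0.0466% in lungs. Lungs B kept the day 0 share and lungs D lost most of it, and its log2 difference was -0.88 (SE 0.92, adjusted p = 0.492).

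Of the 4 hairpins against calcium channel subunits 3 were lower in lungs, with a median of -1.64. Over all pools 19.1% of the tested hairpins were lower, with a median of -0.13. The Cacna2d1 hairpin TRCN0000436790 held 0.0754, 0.150 and 0.0376% at day 0 and 0.00235, 0.00142 and 0.000265% in lungs (log2 difference -5.16, SE 0.95, adjusted p = 0.00731). The Cacna2d1 hairpin TRCN0000421331 held 2.07, 2.21 and 1.84% at day 0 and 0.391, 0.396 and 0.539% in lungs (log2 difference -1.23, SE 0.34, adjusted p = 0.0289). Neither overlapped between arms. Among genes with at least 2 tested hairpins, Cacna2d1 was the one whose hairpins, 2 of 2, were all called lower in lungs. The Cacng2 hairpin TRCN0000428781 held 1.09, 1.59 and 0.693% at day 0 and 0.276, 0.143 and 0.118% in lungs (log2 difference -1.69, SE 0.49, adjusted p = 0.0367). The calls of TRCN0000421331 and TRCN0000428781 were lost without any day 0 library or without lungs C, with adjusted p of 0.0682 to 0.0938 for the first and 0.0530 to 0.113 for the second. The second Cacng2 hairpin (TRCN0000446801) had 0, 139 and 1 reads at day 0 and 0 reads in all 3 lungs, too few to show a change.

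Of the 3 hairpins against Clint1, 2 rose in lungs. TRCN0000251824 held 3.71, 3.33 and 4.94% at day 0 B, C and D, and 9.66, 10.1 and 12.6% in lungs B, C and D. All mice lay above all day 0 libraries, with a log2 difference of 2.43 (SE 0.29, adjusted p = 0.00155) and 1.45 on plain shares (adjusted p = 0.00242). TRCN0000251822 held 5.52, 5.42 and 5.53% at day 0 and 8.92, 6.81 and 13.9% in lungs, also without overlap. Its log2 difference was 1.77 (SE 0.27, adjusted p = 0.00357), and 0.78 on plain shares, where the adjusted p was 0.0567. The third Clint1 hairpin (TRCN0000251823) was rare, with 1188, 2152 and 404 reads at day 0 and 641, 47 and 8 reads in lungs. Its log2 difference had the other sign, at -3.36 (SE 1.41, adjusted p = 0.109). Both called hairpins against Clint1 had day 0 shares above 3%, and the rare one was not called.

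The Pacs2 hairpin TRCN0000250356 shows how the reference matters. It held 8.67, 8.09 and 7.43% at day 0 and 10.3, 5.91 and 5.78% in lungs, so that only lungs B exceeded day 0. Relative to the bulk of the pool it was called higher (log2 difference 0.80, SE 0.23, adjusted p = 0.0347). On plain shares the sign turned, at -0.19 (adjusted p = 0.609). The call was lost without any day 0 library (adjusted p of 0.0668 without D, 0.0878 without B and 0.0989 without C). The other Pacs2 hairpins were not called. TRCN0000250357 held 0.316 to 0.496% at day 0 and 0.274, 0.0914 and 0.0454% in lungs (adjusted p = 0.283), and TRCN0000250359 held 0.353 to 1.08% at day 0 and 0.259, 0.00964 and 0.0708% in lungs (adjusted p = 0.114).

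Of the 4 Usp34 hairpins, 2 were called higher in lungs, 1 was called lower and 1 was not called. TRCN0000234170 held 3.07, 2.96 and 2.82% at day 0 and 6.53, 7.30 and 6.20% in lungs, a tight rise in all mice (log2 difference 2.16, SE 0.24, adjusted p = 0.000956; 1.18 on plain shares, adjusted p = 0.00237). TRCN0000234171 held 5.48, 4.88 and 7.14% at day 0 and 9.55, 21.3 and 7.53% in lungs (log2 difference 1.98, SE 0.51, adjusted p = 0.0248). Lungs C stood far above the other mice for it, and on plain shares the difference was 1.00 (adjusted p = 0.0750). Its call was lost without day 0 B (adjusted p = 0.0689) or C (adjusted p = 0.0618). TRCN0000257239 held 1.93, 2.51 and 1.03% at day 0 and 0.421, 0.0860 and 0.0728% in lungs, below day 0 in every mouse (log2 difference -2.64, SE 0.68, adjusted p = 0.0249). Its call was lost without day 0 B, day 0 C or lungs C (adjusted p = 0.0776, 0.0698 and 0.0521). TRCN0000234169 held 0.839, 1.30 and 0.405% at day 0 and 0.270, 0.0284 and 0.224% in lungs (log2 difference -1.68, SE 0.87, adjusted p = 0.176).

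Among 13 hairpins against genes of the matrix and cell surface, 1 was higher in lungs and 0 were lower by limma, with a median of -0.24. Over all pools 14.7% were higher and 19.1% lower. At an unadjusted limma p under 0.05, 2 were higher and 0 lower, and edgeR called 1 higher and 0 lower. The higher one was the Lama3 hairpin TRCN0000239268, with 7.03, 6.73 and 9.54% at day 0 and 11.4, 17.9 and 19.4% in lungs. No mouse overlapped with day 0 (log2 difference 2.03, SE 0.37, adjusted p = 0.00695; 1.05 on plain shares, adjusted p = 0.0204). The other Lama3 hairpins had differences of -0.27 for TRCN0000239269 (adjusted p = 0.712) and -1.45 for TRCN0000239267 (adjusted p = 0.128). Both Coch hairpins, both Plaur hairpins, both Tfpi2 hairpins and both Dpep1 hairpins missed the threshold against day 0 after TMM scaling. On plain shares both Tfpi2 hairpins were lower by limma. They stood at -1.64 for TRCN0000284502 (adjusted p = 0.00552) and -0.78 for TRCN0000271824 (adjusted p = 0.0242). Lama3 TRCN0000239267 was lower there too (-2.43, adjusted p = 0.0261), while the Coch, Plaur and Dpep1 hairpins missed the threshold.

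Of the 8 hairpins against Id4, Tsc22d1, Ndrg1 and Phlda1, 0 were called in lungs by limma, 0 had an unadjusted p under 0.05 and 0 were called by edgeR. Their log2 differences ran from -2.10 to 1.02 with a median of 0.10. By limma 33.8% of the hairpins tested in all pools were called. Of the hairpins against Gfap, 1 was called lower. TRCN0000437350 had 2167, 4556 and 1537 reads at day 0 and 356, 0 and 62 in lungs (log2 difference -5.26, SE 1.52, adjusted p = 0.0362). The edgeR test gave it an adjusted p of 0.132, and the limma call was lost without any day 0 library or without lungs D (adjusted p of 0.0564 to 0.0847). The other Gfap hairpin (TRCN0000428675) held 4.03 to 4.59% at day 0 and 3.07 to 3.73% in lungs (log2 difference 0.65, adjusted p = 0.0953).

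The number of calls against day 0 rested on the start libraries. Without day 0 B or without day 0 C it dropped from 18 to 10, and without day 0 D to 12. Of the 18 called hairpins, 9 stayed called whichever library was left out. They targeted Clint1 (2), Rac1 (2), Cacna2d1 (TRCN0000436790), Eftud2, Lama3, Snrpd1 (TRCN0000295003) and Usp34 (TRCN0000234170). The edgeR quasi-likelihood test on the recovered reads called 15, and each of these was among the 18.

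Between mice, 12 hairpins had a highest lung share at least 10 times the lowest, or reads in some mice and 0 in others. The uneven group included hairpins against Myc (TRCN0000234923, a ratio of 20.9), Pacs2 (TRCN0000250359, 26.9), Phlda1 (TRCN0000295139, 31.8), Snrpd1 (TRCN0000295003, 57.9), Clint1 (TRCN0000251823, 67.6), Rac1 (TRCN0000301589, 14.8) and Ndrg1 (TRCN0000238073, 11.9). The other members were the hairpins at 0 reads in 1 or 2 lungs, against Eftud2, Gfap, Rac1, Timeless and Ndrg1 (TRCN0000257341). The Phlda1 hairpin had 0.0271% in lungs B, 0.00239% in C and 0.0760% in D, beside 0.0189 to 0.0514% at day 0. The Ndrg1 hairpin TRCN0000238073 held 0.975% in lungs B and 0.0822% in lungs D, beside 1.07 to 1.22% at day 0. By the same rule 10 hairpins were as uneven over the 4 cultures, and 2 at day 0, both very rare. The median ratio of highest to lowest was 1.58 at day 0, 2.96 over the 4 cultures and 2.55 in lungs.

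The comparison of culture with day 0 asks which hairpins changed over the same time without a host. It shares the day 0 libraries with the lung comparison, so the 2 sets of differences are not independent. Of 54 hairpins 20 differed, 9 higher and 11 lower. Over all pools 60.6% of hairpins passed in this comparison, 28.8% higher and 31.9% lower, so pool 15 had a smaller share of calls than the background. The median was -0.18, beside -0.10 over all pools. On plain shares 23 differed, 3 higher and 20 lower, with a median of -0.79.

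The Tfpi2 hairpin TRCN0000284502 held 5.32, 4.34 and 6.86% at day 0 and 11.1, 7.34, 10.8 and 10.9% in culture. All cultures were above all day 0 libraries (log2 difference 1.48, SE 0.34, adjusted p = 0.00445; 0.87 on plain shares, adjusted p = 0.00346).

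The Usp34 hairpin TRCN0000234171 rose from 5.48, 4.88 and 7.14% to 12.3, 7.63, 11.5 and 10.7% (log2 difference 1.46, SE 0.35, adjusted p = 0.00518). On plain shares too it was higher, by 0.85 (adjusted p = 0.00388). Further hairpins called higher relative to the bulk were those against Cdc27 (TRCN0000248359, 1.23), Id4 (TRCN0000425323, 1.20), Pacs2 (TRCN0000250356, 1.06), Lama3 (TRCN0000239268, 1.01), Usp34 (TRCN0000234170, 0.95) and Clint1 (TRCN0000251824, 0.94), as log2 differences. Each of these 6 kept a positive difference on plain shares, of 0.33 to 0.62, but missed the threshold there. Their calls are thus changes against the bulk of the pool. The Clint1 and Lama3 calls were also lost without day 0 C, culture A or culture C, with adjusted p between 0.0718 and 0.116, and the Cdc27 call without day 0 C (adjusted p = 0.0632).

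By limma the largest called fall in culture was that of the Cacna2d1 hairpin TRCN0000436790 (log2 difference -3.77, SE 1.04, adjusted p = 0.0111). It went from 3429, 6226 and 1647 reads at day 0 to 13, 393, 138 and 402 reads in cultures A to D. The Cacna2d1 hairpin TRCN0000421331 went from 2.07, 2.21 and 1.84% to 0.314, 0.644, 0.626 and 0.637% (log2 difference -1.32, SE 0.32, adjusted p = 0.00519). Both hairpins were thus called lower in both late arms. The Usp34 hairpin TRCN0000234169 held 0.839, 1.30 and 0.405% at day 0 and 0.0264, 0.0724, 0.0422 and 0.0634% in culture. It had the smallest p of the falls (log2 difference -3.39, SE 0.48, adjusted p = 0.000203), and in lungs it kept 0.0284 to 0.270%. By edgeR its fall was slightly larger than that of TRCN0000436790 (-3.48, beside -3.42).

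Hairpins against genes of cell division were lower in culture for 3 of 8 and higher for 1, beside 31.9% lower and 28.8% higher over all pools, so the share of lower calls was near the background. The Myc hairpin TRCN0000234923 held 0.0940, 0.104, 0.0907 and 0.0238% in cultures A to D, beside 0.527 to 0.886% at day 0 (log2 difference -2.81, SE 0.60, adjusted p = 0.00291). The Timeless hairpin TRCN0000234047 held 0.112, 0.847, 0.288 and 0.371%, beside 1.14 to 2.19% at day 0 (log2 difference -1.82, SE 0.52, adjusted p = 0.0133; without day 0 B, adjusted p = 0.0810). Both lay below day 0 in all 4 cultures. The Cdc27 hairpin TRCN0000248357 held 0.266, 0.415, 0.437 and 0.338%, beside 1.03 to 1.54% at day 0 (log2 difference -1.22, SE 0.34, adjusted p = 0.0116; without day 0 D or B, 0.0527 and 0.116).

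Both Snrpd1 hairpins were called lower in culture, but only just. TRCN0000295003 held 0.0453, 0.0263, 0.0866 and 0.0157% in cultures A to D, beside 0.173 to 0.217% at day 0 (log2 difference -1.87, SE 0.68, adjusted p = 0.0386). TRCN0000295005 held 0.541, 0.152, 0.328 and 0.140%, beside 0.853 to 2.25% at day 0 (log2 difference -1.77, SE 0.68, adjusted p = 0.0471). Neither overlapped with day 0. The edgeR test gave adjusted p of 0.0932 and 0.0773, and each limma call was lost on leaving out 1 of 5 libraries. These were day 0 D, day 0 B, culture D and culture B for both, and day 0 C for the first and culture C for the second (adjusted p of 0.0557 to 0.208).

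The remaining falls in culture were those of hairpins against Usp34 (TRCN0000257239, log2 difference -1.79), Ndrg1 (TRCN0000238071, -1.74) and Lama3 (TRCN0000239269, -1.71). The Ndrg1 hairpin held 0.107, 0.233, 0.172 and 0.253% in cultures A to D, beside 0.649 to 1.25% at day 0 (SE 0.40, adjusted p = 0.00403). The Lama3 hairpin held 0.343, 0.196, 0.383 and 0.662%, beside 1.54 to 1.97% (SE 0.48, adjusted p = 0.0121; without day 0 D or B, 0.0692 and 0.0667). The Usp34 hairpin had an adjusted p of 0.0179, and 0.0841, 0.0664 and 0.0609 without day 0 B, day 0 C and culture D. Hairpins of a single gene thus moved apart in culture: Usp34, Cdc27 and Lama3 each had hairpins called in both directions.

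The direct comparison of lungs with culture asks where the late arms differ. Of the 52 hairpins tested 11 differed, 3 higher and 8 lower in lungs, against a background of 24.9% over all pools, 11.6% higher and 13.3% lower. The median was -0.47, beside -0.11 over all pools. Plain shares gave 13 calls, 4 higher and 9 lower, and all 11 were among them. For 17 of the 54 hairpins the lung and culture shares did not overlap, 4 higher and 13 lower in lungs. Over the 892 hairpins this share was 41.0%, with 18.0% higher and 23.0% lower, although most other pools had 3 culture libraries rather than 4.

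Clint1 supplied 2 of the 3 hairpins that were higher in lungs. TRCN0000251822 held 3.67, 3.33, 3.15 and 5.78% in cultures A to D, and 8.92, 6.81 and 13.9% in lungs B, C and D. Every mouse lay above every culture (log2 difference 1.49, SE 0.35, adjusted p = 0.0128; 1.29 on plain shares). TRCN0000251824 held 5.91, 4.29, 5.51 and 4.31% in culture and 9.66, 10.1 and 12.6% in lungs (log2 difference 1.31, SE 0.34, adjusted p = 0.0210; 1.11 on plain shares). Both calls were lost without lungs D (adjusted p = 0.0523 and 0.0715), with differences of 1.24 and 1.22. The third was the Gfap hairpin TRCN0000428675, with 1.96, 1.84, 2.19 and 1.31% in culture and 3.07, 3.70 and 3.73% in lungs (log2 difference 1.16, SE 0.37, adjusted p = 0.0473). The Gfap call was lost without culture B, culture C, lungs D or lungs C (adjusted p of 0.0794 to 0.187), and edgeR gave an adjusted p of 0.0509.

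A hairpin called higher in culture against day 0 was lower in lungs. The Tfpi2 hairpin TRCN0000284502 held 7.34 to 11.1% in culture and 2.63, 1.31 and 1.52% in lungs B, C and D (log2 difference -2.31, SE 0.35, adjusted p = 0.00142), and it stayed called under every alternative. Its lung and culture shares did not overlap. The other Tfpi2 hairpin (TRCN0000271824) held 2.91 to 4.11% in culture and 1.84 to 2.47% in lungs, with a log2 difference of -0.44 (SE 0.26, adjusted p = 0.238).

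A hairpin against each of Snrpd1, Eftud2 and Rac1 was also lower in lungs than in culture. The log2 differences were -6.82 for Snrpd1 TRCN0000295003 (SE 1.15, adjusted p = 0.00240), -6.77 for Eftud2 TRCN0000294567 (SE 1.25, adjusted p = 0.00383) and -3.55 for Rac1 TRCN0000310888 (SE 0.81, adjusted p = 0.0112). The Rac1 hairpin held 0.0277, 0.0472, 0.0359 and 0.0208% in cultures A to D, near its lowest day 0 share. The Rac1 hairpin with the fewest lung reads, TRCN0000310901, was not called here (-1.96, SE 1.90, adjusted p = 0.472), with 303, 0, 5 and 0 reads in the cultures. Further calls were the Lama3 hairpin TRCN0000239267 (-2.39, adjusted p = 0.0237), the Cacng2 hairpin TRCN0000428781 (-2.26, adjusted p = 0.0136) and the Dpep1 hairpin TRCN0000438017 (-2.08, adjusted p = 0.0221). These 3 calls were lost without culture D, with adjusted p of 0.0801, 0.0619 and 0.0736. The Lama3 and Dpep1 calls were lost without lungs B too (0.167 and 0.113), and also without culture A or B for Lama3 (0.0527 and 0.0566) and without culture C for Dpep1 (0.0501).

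Culture rested on libraries of 2 kinds. With the 3 mixed cultures alone, 10 hairpins differed between lungs and culture, of which 8 were among the 11. With culture D alone 1 did, in a fit where that single library is assumed to vary like the other arm. The cause of this drop was not tested. Against day 0 the counts were 19 with either kind, of which 17 with the mixed cultures and 13 with culture D were among the 20. Culture A stood apart from the other cultures, with a mean r of 0.902 to them, beside 0.943 to 0.949 for B, C and D. Without culture A the counts were 20 against day 0 and 12 for lungs against culture. Hairpins against Prkca (TRCN0000235974) and Ndrg1 (TRCN0000257341) had 2535 and 2963 reads in culture A, and 40 to 113 and 26 to 267 reads in the other 3 cultures.

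Of 20 genes with at least 2 tested hairpins, 1 had hairpins called in opposite directions in lungs against day 0 (Usp34) and 3 in culture against day 0. In lungs against culture 0 of 18 did by limma and 0 by edgeR, and at an unadjusted limma p under 0.05 1 did (Gfap). Counting hairpins that were not called too, 10 genes had hairpins of a single sign in lungs against day 0, 8 in culture against day 0, and 6 of 18 in lungs against culture. Cacna2d1 was the gene whose hairpins were all called lower in lungs, and Cacna2d1 and Snrpd1 in culture.

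For 17 of the 24 genes the series holds 30 further hairpins in other pools, measured in other mice. All but 1 were also read in other libraries: Id4 TRCN0000433286 of pool 14 takes its culture values from cultures A to C, which hold both pools. Against day 0, 3 of 29 tested were higher and 5 lower in lungs, and 8 were higher and 8 lower in culture. Neither share of calls was above the 33.8% and 60.6% over all pools. Of the 2 Cacna2d1 hairpins in pool 4, 1 fell: TRCN0000068996 went from 1.14% ± 0.0444 (SD, n = 3) at day 0 to 0.456% ± 0.0581 (n = 3) in lungs (log2 difference -1.13, adjusted p = 0.00880) and 0.387% (n = 3) in culture (-1.04, adjusted p = 0.000239). The other, TRCN0000068997, held 0.0476% at day 0, 0.0533% in culture (-0.61, adjusted p = 0.733) and 0.00989% in lungs (-3.95, adjusted p = 0.203). For Eftud2, TRCN0000123640 of pool 9 was lower in lungs than in culture (-3.35, SE 0.68, adjusted p = 0.00462), with 1.24% at day 0, 0.924% in culture (n = 6) and 0.0211 and 0.260% in the 2 lungs. Its difference from day 0 in lungs was -3.07 (adjusted p = 0.0609). The other Eftud2 hairpin of pool 9, TRCN0000123642, fell in culture already, from 0.513% to 0.0538% (-2.82, adjusted p = 4.02e-05), and its difference between lungs and culture was not called (-3.56, SE 1.90, adjusted p = 0.194).

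The 2 Tfpi2 hairpins of pool 8 differed from each other. TRCN0000080031 rose in culture, from 1.34% at day 0 to 2.63% (1.17, adjusted p = 1.37e-05), and held 2.00% ± 1.15 (SD, n = 3) in lungs, with a difference from culture of -0.47 (adjusted p = 0.319). TRCN0000080032 of pool 8 held 5.83% at day 0, 5.79% in culture and 12.3% in lungs, higher in lungs than in culture (1.17, adjusted p = 0.000179).

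A Timeless and a Snrpd1 hairpin of other pools fell in culture, while a Myc and a Cacng2 hairpin rose. TRCN0000097985 (Timeless, pool 8) went from 1.92% at day 0 to 0.231% in culture (-2.96, adjusted p = 8.51e-05) and 0.417% in lungs (-2.05, adjusted p = 0.00231). TRCN0000123403 (Snrpd1, pool 9) went from 1.20% to 0.191% in culture (-2.17, adjusted p = 0.000126), and its 2 lungs held 0.0626 and 2.82%. The Myc hairpin TRCN0000054854 of pool 6 went from 1.10% at day 0 to 1.30% in culture (0.49, adjusted p = 0.0147). Neither it (-0.31, adjusted p = 0.644) nor the other Myc hairpin of pool 6, TRCN0000054853 (0.83, adjusted p = 0.369), was called in lungs. The Cacng2 hairpin TRCN0000069209 of pool 4 went from 0.856% to 1.48% in culture (1.30, adjusted p = 4.23e-05), and its difference in lungs was 0.53 (adjusted p = 0.514). Plaur, not called in pool 15, had a hairpin in pool 6 (TRCN0000088818) that fell from 1.92% at day 0 to 0.128% in lungs (-3.85, adjusted p = 0.00305) and 0.253% in culture (-2.66, adjusted p = 2.65e-08). Clint1, Rac1, Usp34, Pacs2, Cdc27, Prkca and Ndrg1 had no further hairpins among those analysed here.

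The 8 control hairpins were read in the same libraries, and their abundance is given as reads per 100 reads of pool 15. They made up 25.1 to 30.1% of all reads at day 0, 11.1 to 19.5% in lungs and 15.9 to 20.2% in culture. The 2 non-targeting controls did not move together. The first (SHC002) stood at 4.63, 4.02 and 5.16 at day 0 and 6.31, 4.70 and 6.41 in lungs (log2 difference 1.31, SE 0.21, adjusted p = 0.00487). Its share in lungs C lay inside the day 0 range. The log2 differences of the controls include the TMM shift of pool 15, which the reads per 100 do not. The second (SHC016) went from 1.92, 1.66 and 3.31 to 0.128, 0.278 and 0.207 (-2.51, SE 0.57, adjusted p = 0.0185). The GFP control went from 2.70 to 3.53 at day 0 to 0.710 to 1.17 in lungs (-0.74, adjusted p = 0.0388). The Cdkn1b control, against a cell cycle inhibitor, stood at 6.22, 6.05 and 5.68 at day 0 and 10.3, 4.97 and 10.8 in lungs (1.44, SE 0.25, adjusted p = 0.00594), with lungs C below day 0. The PIK3CA control, named for the human gene, was at 0.0399 or less at day 0 and 0.000368 or less in lungs (-4.55, adjusted p = 0.0284), and the MUC1 control at 0.0292 to 0.181 and 0.000485 to 0.0878 (-2.32, adjusted p = 0.335).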

How the data were processed

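Hairpin abundance in genomic DNA was read after a two-step PCR, per the labels' protocols. The submitters' processing notes name BWA 0.5.9; how reads were counted and scaled is not given in the sources used here. The authors deposited a normalised signal for each hairpin of a library. Each value was divided by the smallest of its library, which gave whole reads (within 0.01) for 27241 of 27241 values, and a hairpin with no row counts as 0 reads. Because the deposited unit is a scaled signal, limma 3.58.1 (R 4.3.3) on log2(CPM + 1) was the main test. CPM is relative to the pool's own targeting reads with TMM factors from edgeR 4.0.16. Each pool had its own fit of the 2 arms in question, with limma's trend and robust options, restricted to hairpins averaging at least 10 reads. A fold change on this scale understates the change of rare hairpins. Benjamini-Hochberg adjustment ran over every tested hairpin of the 17 or 18 pools with values, and calls have an adjusted p under 0.05. Prior degrees of freedom for pool 15 were 3.02, 4.30 and 4.15 in lungs against day 0, culture against day 0 and lungs against culture. Single values per library were compared by exact permutation tests. Simulated data were used to test the fits.

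Alternatives were plain shares, DESeq2 (1.42.0) size factors and test, the deposited scaling, the control total, edgeR, other pseudocounts and filters, each library left out, a replicate block, and either kind of culture library. All 54 hairpins of pool 15 are covered; the text names those called in a comparison (at most 10 per direction), the 5 most common of each arm, the leader of each late library, those at 0 reads or uneven between lungs, genes with calls all in one or in opposite directions, Clint1 and the controls; some items that the rule covers are not reported here, though counts include them. Further hairpins named beside them were chosen after their values were seen. The members, the gene groups and the rules were chosen with earlier results of these data known. Symbols follow the files; of 24 genes, 22 matched RefSeq by accession and 24 by symbol. Library letters are not stated to pair the arms. Counting intervals are 95% exact intervals, and a count of 0 allows up to 3 reads; both cover counting error only. Of 158 samples, 10 without values belong to other pools. No map of hairpins to a genome was used.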

Additional observations from a re-analysis of the deposited data

Results flagged for a closer look

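Culture A stood apart from the other cultures, with a mean r across hairpins of 0.902 to them, beside 0.943 for the nearest. Of 58 sets of 4 culture values that were examined, 6 held a library far from the other 3. The rule marks about 1 in 20 of independent, normally distributed sets by chance. These sets come from the same 4 libraries, so their count cannot be set against that rate. The other 5 were single hairpins. The Prkca hairpin TRCN0000235974 held 0.0741% in culture A, beside 0.00276% in the next library. The Cacna2d1 hairpin TRCN0000421331 held 0.314% in culture A, beside 0.626%. The Myc hairpin TRCN0000234923 held 0.0238% in culture D, beside 0.0907%, and the Tfpi2 hairpin TRCN0000284502 held 7.34% in culture B, beside 10.8%. The Cacng2 hairpin TRCN0000446801 held 0.000112% in culture D, which is 6 reads, and 0 reads in the other cultures.

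For 5 of the hairpins reported here the differences from day 0 had opposite signs in lungs and culture, and the direct limma test of lungs against culture passed the threshold. The log2 differences of lungs minus culture were -2.39 for Lama3 TRCN0000239267, -2.31 for Tfpi2 TRCN0000284502, 1.16 for Gfap TRCN0000428675, -2.26 for Cacng2 TRCN0000428781 and -2.08 for Dpep1 TRCN0000438017. Among these, the Tfpi2 hairpin was called higher in culture and the Cacng2 hairpin lower in lungs against day 0. The other single differences from day 0 missed the threshold. The opposite signs depend on the scaling for 2 of the 5. On plain shares the Gfap hairpin stood at -0.33 in lungs and -1.29 in culture against day 0, and the Cacng2 hairpin at -2.67 and -0.20.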

How the results depend on the processing

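Of the hairpins called in lungs against day 0, culture against day 0 and lungs against culture, 7 of 18, 6 of 20 and 1 of 11 stayed called under every alternative run, and 9, 11 and 5 with each library left out in turn. Setting aside the fit with 1 culture library, 7, 8 and 4 stayed called. For lungs against day 0 the 18 calls became 10 with the library letter as a replicate block, all among the 18, and 10 to 22 with 1 library left out. For culture against day 0 the 20 calls ranged from 14 to 22 and for lungs against culture the 11 calls from 9 to 13 on leaving out a library. For lungs against culture, DESeq2 called 19, and culture D as the only culture library left 1 call; the cause was not tested. The sign of 1 called value turned: the Pacs2 hairpin TRCN0000250356 in lungs against day 0 was -0.19 on plain shares, by their construction without the TMM shift. With the block the counts were 23 where culture was set against day 0 and 13 in the direct comparison of the late arms. Same-letter libraries did not deviate together throughout (r for D, B and C of 0.17, 0.17 and -0.19 between lungs and day 0, -0.10, 0.50 and -0.01 between culture and day 0, and -0.01, 0.39 and 0.22 between lungs and culture), so the letters were not taken as pairs. Plain shares turned the split of higher to lower calls against day 0 from 6 and 12 to 3 and 23 in lungs, and from 9 and 11 to 3 and 20 in culture; DESeq2 gave 14 and 13, and 15 and 10. The control total was not used for comparisons with culture, since cultures A to C hold the controls of both pools. The direction of the effective number and of the largest share held under all their alternatives, none of which passed 0.05. Differences of hairpins with few reads, such as Rac1 TRCN0000310901 (-0.99 with a pseudocount of 100), depend on the pseudocount.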
